A study of Mus musculus with 20 samples.

Results

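The oligoadenylate synthetase (OAS) genes Oas1a, Oas1b, Oas1c, Oas1g, Oas2, Oas3, Oasl1 and Oasl2 were followed in 20 polyadenylated RNA-seq libraries of mouse mammary tumors and mammary organoids. They were picked by name when their CPM (gene counts scaled to a common library size) in these libraries were already known, so their levels and differences are a description. They are 8 of the 12 OAS genes in the annotation and 8 of 45318 genes in the count tables. All 8 of 8 passed the filter on low counts, which left 18698 genes.

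The Neu-NT tumor sections (n = 3) had the genotype MMTV-Cre;Flox-Neo-Neu-NT: the mammary-active MMTV promoter drives Cre, which turns on an activated Neu (ErbB2) receptor. The PyMT tumor sections (n = 3) came from MMTV-PyMT mice, in which that promoter drives the polyoma middle T antigen. Neu-NDL organoids (n = 3) were grown from tumors of MMTV-Neu-NDL mice, which carry another activated Neu. PyMT tumors gave organoids at day 6 (n = 3), undated organoids (n = 2), whose titles name no day but whose labels give the same 6 days, and organoids at day 0 (n = 3), extracted right after preparation. WT organoids (n = 3), from normal mammary gland, were grown for 6 days. All mice were FVB, and cultured organoids stood in matrigel with the growth factor FGF2. A section is a 30 µm slice of uncultured tumor, so in a comparison with WT organoids the oncogene and the lack of culture cannot be told apart. Labels give no age and do not say whether replicates were separate animals, so a p-value covers only the scatter of these samples, which may be technical. Comparisons of 6 day PyMT organoids weighted the day 6 and undated groups equally.

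OAS proteins are made in response to interferon and sense double-stranded RNA. On binding it, the active synthetases join ATP into 2′-5′-linked oligoadenylates (2-5A), a second messenger of antiviral defense. Mammary epithelium, macrophages and most other cells can make them, since nearly all cells carry the receptor for type I interferon.

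The libraries held 17478357 to 48341438 gene counts. A pair of libraries stood apart from their groups. PyMT organoids day 6 replicate 3 had 9.01 CPM of the basal keratin Krt5 and 14.8 CPM of the leukocyte gene Ptprc, against 272 and 1830 CPM of Krt5 and 0.488 and 0.512 CPM of Ptprc in replicates 1 and 2. Neu-NT tumor sections replicate 3 had 26.4 CPM of Krt5 and 2.49 CPM of the T cell gene Cd3e, against 0.0756 and 0.225 CPM of Krt5 and 0.113 and 0.135 CPM of Cd3e in replicates 1 and 2. Both libraries are in the values below unless said.

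All 8 genes lie on mouse chromosome 5 (mm10, gene models of GENCODE M21). The Oas1, Oas2 and Oas3 genes form a cluster of 10 genes over 191.3 kb, from Oas2 (chr5:120730333-120749853, minus strand) and Oas3 (chr5:120753098-120777661, minus strand) through Oas1c (chr5:120800194-120812514, minus strand), Oas1b (chr5:120812635-120824163, plus strand) and Oas1g (chr5:120876142-120887613, minus strand) to Oas1a (chr5:120896256-120907521, minus strand). The remaining 4 genes of the cluster, Oas1d, Oas1e, Oas1f and Oas1h, were outside the list. Oasl2 (chr5:114896936-114912234, plus strand) and Oasl1 (chr5:114923240-114937915, plus strand) form a separate pair over 41.0 kb, 5792.4 kb from the cluster. Oas1b is annotated as a polymorphic pseudogene and the other listed genes as protein coding. The starts of Oas1c and Oas1b face away from each other with 120 bases between them.

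**Figure D1:**
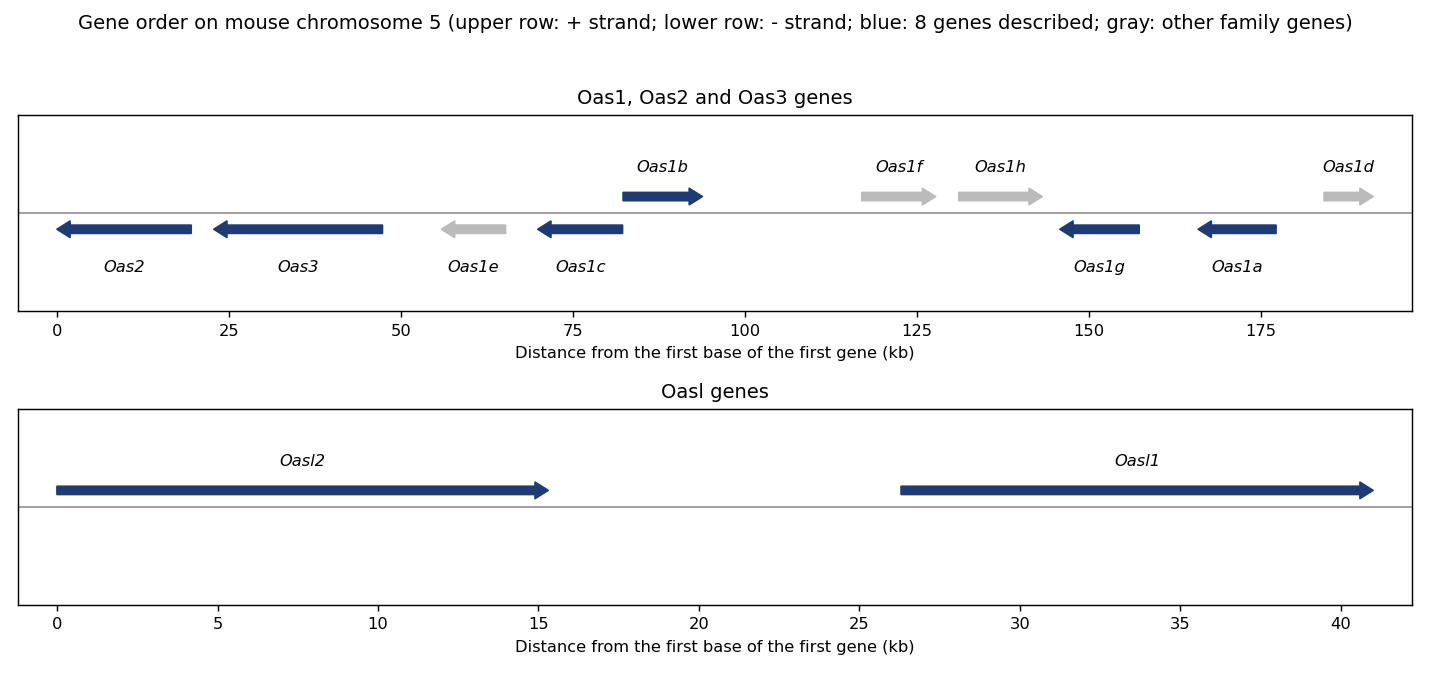
Gene order of the OAS genes on chromosome 5, as distance in kb from the first base of each stretch, with arrows in the direction of transcription. The 8 genes described are blue and the other 4 family genes gray; Oas1c and Oas1b start 120 bases apart on opposite strands, and the Oasl pair sits in a stretch of its own.

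The bases just before the gene starts are shown because Oas1a, Oas1g, Oas1b and Oas1c share a run of letters there that Oas3 and the Oasl pair lack. The letters GAAANNGAAA, the core of the interferon-stimulated response element that the ISGF3 complex and IRF proteins recognise, were searched on both strands in 300-base windows (250 bases before to 50 after the start) from RefSeq, build GRCm38.p6. The window table held 6 of the 8 genes, all but Oas1b and Oas2. The core was in 4 of those 6 (Oas1a, Oas1g, Oas1c and Oas3), against 3.44% of all 32851 windows. Oas1a, Oas1g and Oas1c hold 2 cores that overlap each other, and Oas3 holds 1. Of the unlisted family genes, Oas1f and Oas1h had windows, and 0 of these 2 held the core. The STAT dimer core TTCNNNGAA was in 1 of the 6 (Oas1a), against 8.3% of all windows. In the lines that follow, each sequence runs 5′ to 3′ on the strand of its gene, ends with the base before the start, and has the GAAANNGAAA cores of either strand in capitals; the positions are Oas1a chr5:120907526-120907625, minus strand; Oas1g chr5:120887614-120887713, minus strand; Oas1b chr5:120812535-120812634, plus strand, read from the genome before its GENCODE start; Oas1c chr5:120812515-120812634, minus strand; Oas3 chr5:120777660-120777759, minus strand; and Oasl2 chr5:114896834-114896933, plus strand.
Oas1a: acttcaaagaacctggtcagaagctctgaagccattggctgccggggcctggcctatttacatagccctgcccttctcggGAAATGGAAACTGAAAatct
Oas1g: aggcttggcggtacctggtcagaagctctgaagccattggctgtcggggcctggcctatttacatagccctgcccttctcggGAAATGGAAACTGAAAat
Oas1b: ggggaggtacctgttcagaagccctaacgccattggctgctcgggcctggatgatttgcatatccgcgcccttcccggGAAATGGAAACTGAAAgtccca
Oas1c: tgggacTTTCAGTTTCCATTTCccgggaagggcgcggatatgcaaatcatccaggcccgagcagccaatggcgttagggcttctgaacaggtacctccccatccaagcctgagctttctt
Oas3: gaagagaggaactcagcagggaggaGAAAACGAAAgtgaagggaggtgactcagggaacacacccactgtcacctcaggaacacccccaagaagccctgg
Oasl2: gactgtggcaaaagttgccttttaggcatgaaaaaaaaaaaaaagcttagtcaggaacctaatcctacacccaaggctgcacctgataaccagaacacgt
The 16-base run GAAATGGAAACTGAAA stood at -20 to -5 from the start of Oas1a, at -18 to -3 from Oas1g and at -22 to -7 from Oas1b, counting the base before the start as -1. Oas1c shares that run with Oas1b, since the same 120 bases lie before both starts, and so its run lies at the far end of its sequence and reads as the opposite strand. Oas3 had GAAAACGAAA at -75 to -66. These positions count from RefSeq starts, but from the GENCODE start for Oas1b. For Oas1a and Oas3 the RefSeq and GENCODE starts differ by a few bases. No window of Oasl1 or Oasl2 held the core, which says only that these letters are not there.

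Oas1a and Oas1g encode active synthetases. Oas1a had 82.6, 77.8 and 89.5 CPM in Neu-NT tumor sections, 65.4, 39.3 and 61.3 in PyMT tumor sections, and 30.2, 42 and 106 in Neu-NDL organoids, against 2.27, 4.8 and 10.2 CPM in WT organoids. PyMT organoids had 37.2, 23.8 and 63.2 CPM of Oas1a at day 6 and 15.9 and 12.2 CPM in the undated libraries, against 69.8, 52.6 and 36.6 CPM at day 0. Every tumor library thus lay above every WT library for Oas1a, the undated ones by the least. In log2 fold change over WT organoids, Oas1a stood at 3.85 (SE 0.56) in Neu-NT sections, 3.26 (SE 0.55) in PyMT sections, 3.36 (SE 0.55) in Neu-NDL organoids and 2.07 (SE 0.50) in 6 day PyMT organoids. The group means of Oas1g fell in the same order as those of Oas1a, with values (± SD) of 28.6 ± 6.39 CPM in Neu-NT sections (n = 3), 20.4 ± 13.3 in Neu-NDL organoids (n = 3), 20 ± 6.97 in PyMT sections (n = 3), 11.9 ± 5.92 at day 6 (n = 3), 3.87 ± 0.736 in undated organoids (n = 2), 19.6 ± 4.39 at day 0 (n = 3) and 2.12 ± 1.24 in WT organoids (n = 3). For Oas1g the lower undated library, 3.35 CPM, fell inside the WT range of 1.03 to 3.47 CPM. The transcripts of Oas1a and Oas1g are close copies: 57.6% of the 50-base words of Oas1a occur in Oas1g and 45.2% of those of Oas1g in Oas1a, so their split is uncertain. The family's other listed genes shared at most 9.82% of their words with another family gene. Summed over Oas1a, Oas1b, Oas1c and Oas1g, the log2 fold change over WT organoids was 2.98 (SE 0.43) in Neu-NT sections, 2.39 (SE 0.42) in PyMT sections, 2.45 (SE 0.42) in Neu-NDL organoids and 1.23 (SE 0.37) in 6 day PyMT organoids.

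Oas1b is known in mice for its full-length form, which protects against flaviviruses, and Oas1c is a further Oas1 copy. Oas1b had 31.8, 39 and 12.5 CPM in Neu-NT sections, 23.2, 18.6 and 20.2 in PyMT sections, and 10.5, 11.6 and 26.7 in Neu-NDL organoids, against 3.41, 5.23 and 6.49 CPM in WT organoids. All 9 of those tumor libraries were above the WT libraries. PyMT organoids had 7.22, 5.29 and 19.3 CPM of Oas1b at day 6 and 3.42 and 6.45 CPM in the undated libraries, which overlapped WT organoids, against 17.4, 14.4 and 10.6 CPM at day 0. Oas1c had the flattest levels of the 8 genes. Its group means were 6.93 ± 0.247 CPM at day 6 (n = 3), 6.52 ± 0.412 in undated organoids (n = 2), 6.27 ± 0.54 in PyMT sections (n = 3), 6.1 ± 1.5 at day 0 (n = 3) and 6.53 ± 0.525 in WT organoids (n = 3), which do not differ beyond their spread. Above them were Neu-NDL organoids with 7.31, 8.46 and 14.5 CPM and Neu-NT sections with 16, 17.5 and 6.89 CPM, where replicate 3 lay within the WT range of 6.2 to 7.13. The log2 fold change of Oas1c over WT organoids was 1.04 (SE 0.33) in Neu-NT sections, -0.06 (SE 0.33) in PyMT sections, 0.63 (SE 0.33) in Neu-NDL organoids and 0.04 (SE 0.29) in 6 day PyMT organoids.

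Oas2 and Oas3 are the larger synthetases, built of tandem OAS units, and in human cells OAS3 is the main source of 2-5A in response to double-stranded RNA. Oas2 had 27.3, 53.5 and 97 CPM in Neu-NT sections, 122, 35.4 and 109 in PyMT sections, and 26.5, 19.4 and 77.1 in Neu-NDL organoids, against 0.387, 1.66 and 2.95 CPM in WT organoids. PyMT organoids had 51.4, 12 and 98.6 CPM of Oas2 at day 6 and 10.4 and 5.42 CPM in the undated libraries, against 97.1, 132 and 66.1 CPM at day 0. Every tumor library was above the WT libraries, the undated ones again by the least. The WT libraries held 15 to 96 counts of Oas2, so its fold changes rest on few WT reads. They were the widest of the family in PyMT sections, at 5.74 (SE 0.93) on the log2 scale over WT organoids, and they were 5.16 (SE 0.91) in Neu-NT sections, 4.63 (SE 0.89) in Neu-NDL organoids and 3.64 (SE 0.82) in 6 day PyMT organoids. Oas3 had 5.71, 12.3 and 21.2 CPM in Neu-NT sections, 18.4, 5.43 and 22.1 in PyMT sections, and 12.9, 11.2 and 33.5 in Neu-NDL organoids, against 0.439, 0.448 and 0.984 CPM in WT organoids. PyMT organoids had 13.1, 5.36 and 20.3 CPM of Oas3 at day 6 and 4.56 and 5.2 CPM in the undated libraries, against 14.8, 6.67 and 6.64 CPM at day 0. Its lowest undated library, 4.56 CPM, was far above its highest WT library, 0.984 CPM. WT libraries held 17 to 32 counts of it.

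The Oasl proteins carry ubiquitin-like domains. Oasl1 has no synthetase activity and in mice holds down translation of Irf7, while mouse Oasl2 keeps the activity. Oasl1 had 21.1, 18 and 24.1 CPM in Neu-NT sections, 17.6, 6.83 and 15.6 in PyMT sections, and 8.52, 8.8 and 11 in Neu-NDL organoids, against 0.723, 0.897 and 1.57 CPM in WT organoids. PyMT organoids had 7.05, 2.73 and 14.5 CPM of Oasl1 at day 6 and 3.49 and 2.21 CPM in the undated libraries, against 19.7, 15.6 and 11.2 CPM at day 0. Each tumor library was above the 3 WT libraries for Oasl1, which held 28 to 51 counts of it. Oasl2 had 178, 183 and 117 CPM in Neu-NT sections, 119, 50.4 and 79.9 in PyMT sections, and 67.4, 53.7 and 223 in Neu-NDL organoids, against 5.45, 11.7 and 14.1 CPM in WT organoids. PyMT organoids had 52.7, 13.7 and 74.6 CPM of Oasl2 at day 6 and 41.3 and 16.6 CPM in the undated libraries, against 113, 51.9 and 55.6 CPM at day 0. Day 6 replicate 2 was within the WT range for Oasl2, and the other tumor libraries were above it.

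**Figure D2:**
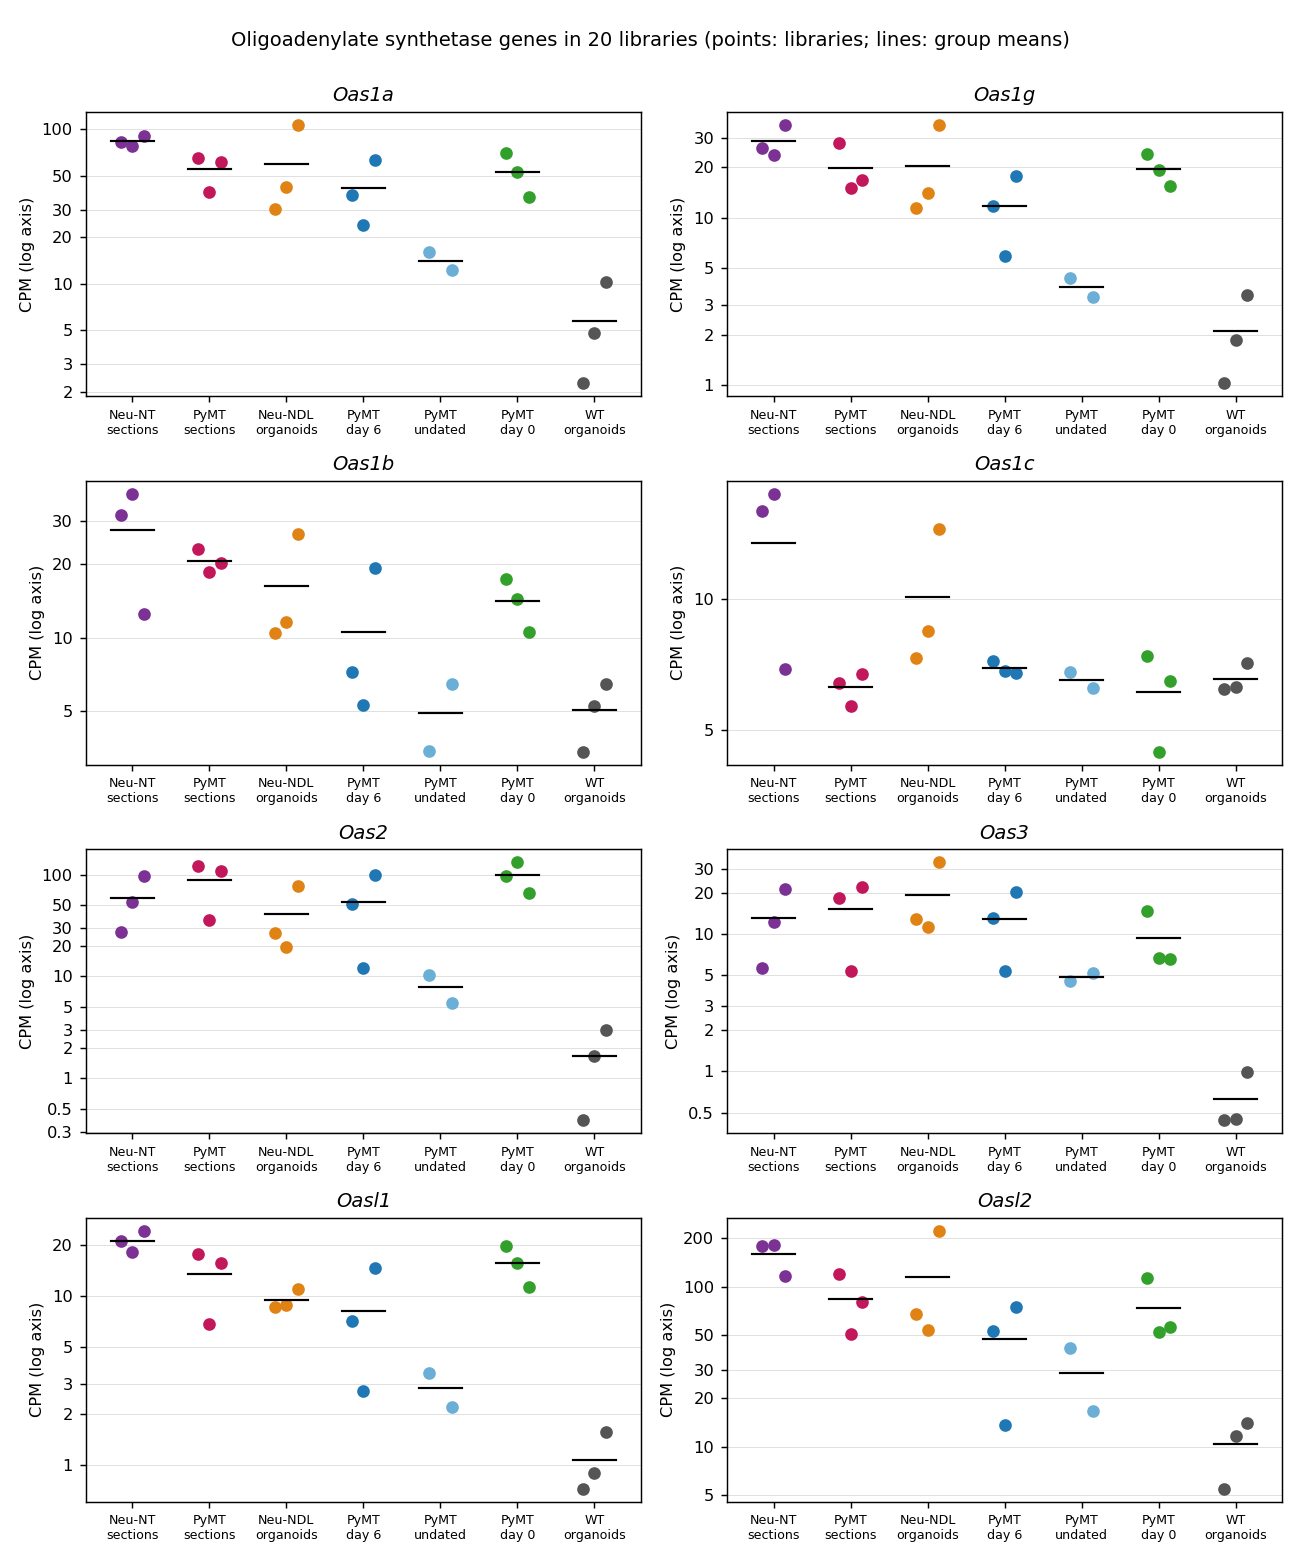
CPM of each OAS gene (log axis) in 20 libraries, with points for libraries and lines for group means, in 7 groups. WT organoids are lowest for 6 of the 8 genes; Oas1c is nearly level outside Neu-NT sections and Neu-NDL organoids, and the undated PyMT organoids lie between the day 6 and WT organoids except for Oas1b and Oas1c.

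The order of the group means had WT organoids last for 6 genes, just ahead of undated organoids for Oas1b (5.04 ± 1.55 CPM, n = 3, and 4.93 ± 2.14, n = 2) and in the middle for Oas1c. Neu-NT sections came first for 6 genes, PyMT organoids at day 0 first for Oas2 (98.4 ± 33 CPM, n = 3) and Neu-NDL organoids first for Oas3 (19.2 ± 12.4 CPM, n = 3). Most neighbouring groups in that order overlapped. For Oas1a the only gaps were between day 6 and undated organoids and between undated and WT organoids. For Oas2, Oas3, Oasl1 and Oasl2 the undated libraries and the WT libraries did not overlap, and for Oas1b, Oas1c and Oas1g they did. The share of all genes without overlap was not counted for these small groups, so nothing is read from that split.

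Levels of different genes were compared as CPM per kilobase of exon. On that scale Oas1a was the most abundant of the 8 in all 7 groups, with a mean of 44.2 in Neu-NT sections and 3.06 in WT organoids, and Oas3 the least abundant in all 7. Oas2 ranked second in PyMT sections, at day 6 and at day 0, with means of 19.9, 12.2 and 22.1, against rank 7 and 0.375 in WT organoids. Oas1c went the other way in rank: it was seventh in Neu-NT and PyMT sections, with means of 5.59 and 2.61, and second in WT organoids with 2.72. Of the family's summed CPM per kilobase, Oas1c made up 4.5% in Neu-NT sections, 2.87% in PyMT sections and 23.2% in WT organoids.

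**Figure D3:**
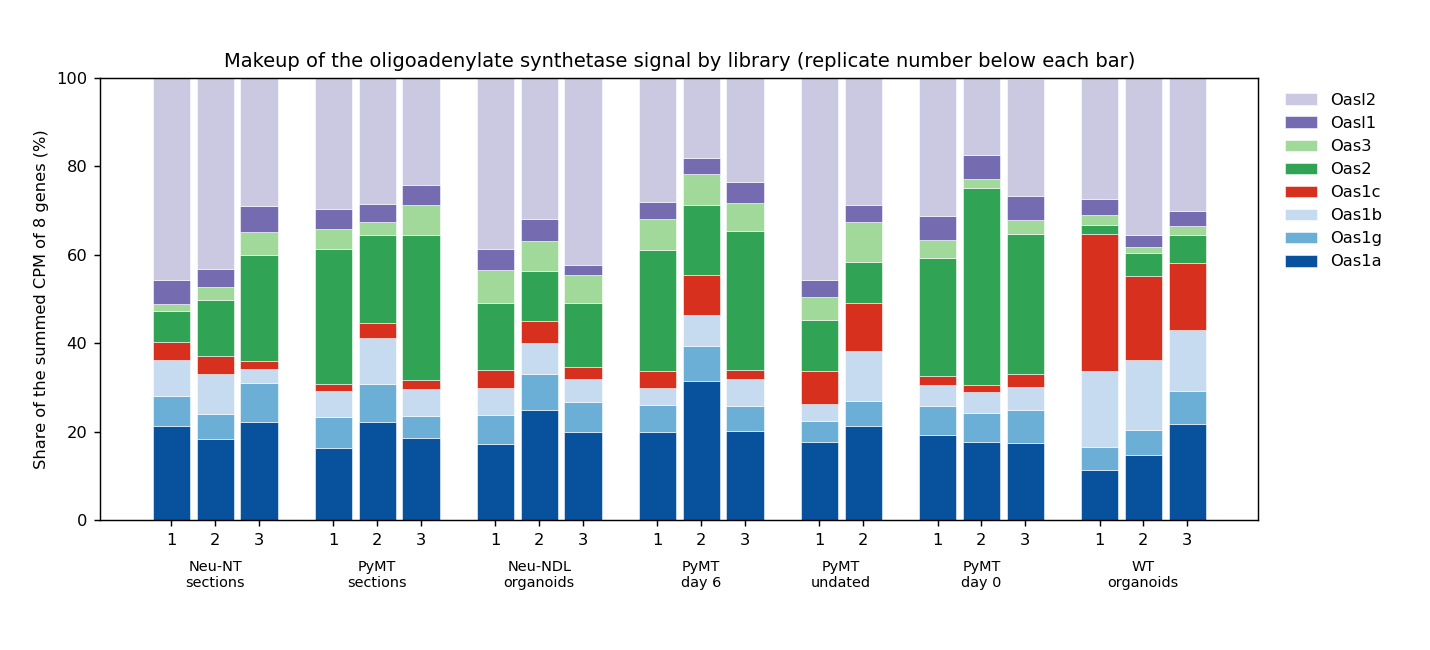
Share of the summed CPM of the 8 OAS genes held by each gene in each library (percent). Oas1c takes 15.2 to 31.1% in the 3 WT libraries and 1.5 to 10.8% in the 17 others.

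Summed over the 8 genes, Neu-NT sections had 388, 425 and 404 CPM, PyMT sections 400, 177 and 331, and Neu-NDL organoids 175, 169 and 527, against 19.9, 32.8 and 46.9 CPM in WT organoids. PyMT organoids had 188, 75.7 and 315 CPM at day 6 and 90.3 and 57.7 CPM in the undated libraries, against 363, 297 and 209 CPM at day 0. The 3 Neu-NT sums lay close together, while Neu-NDL replicate 3 and day 6 replicate 3 were high in their groups. Within a group the genes tended to be high or low together. Neu-NDL replicate 3 was the highest of its group for all 8 genes, PyMT section replicate 2 the lowest of its group for all 8, day 6 replicate 3 the highest for 7, and WT replicates 3 and 1 the highest and the lowest for all 8. Neu-NT replicate 3 was mixed, highest for 5 genes and lowest for Oas1b, Oas1c and Oasl2.

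In Neu-NT sections over WT organoids, 8 of the 8 genes were called higher by edgeR's quasi-likelihood test (Benjamini-Hochberg adjusted p under 0.05 over all genes tested), where 10.5% of all genes were. Their median log2 fold change was 3.90, against 0.03 over all genes. All Neu-NT libraries were above all WT libraries for 7 of them, all but Oas1c, as they were for 19.4% of all genes. Without both libraries that stood apart, 8 were called, with a median of 3.83. The call of Oas1c was kept in only 5 of 13 alternative settings (adjusted p by edgeR or DESeq2 up to 0.218), and the count was 7 with no filter on low counts. In PyMT sections over WT organoids, 7 of 8 were called higher, all but Oas1c, where 6.45% of all genes were, with a median of 3.25 against 0.03. Those 7 did not overlap between the groups, as 23.2% of all genes did not in that direction. The count was 5 without WT replicate 1 or PyMT section replicate 1, and Oas1b kept its call in 8 of 13 alternative settings and Oasl2 in 11. The median was 3.87 without WT replicate 3.

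In Neu-NDL organoids over WT organoids, which share culture and its length, 6 of 8 genes were called higher, all but Oas1b and Oas1c, where 2.47% of all genes were. The median log2 fold change was 3.32 against 0.02 over all genes, and all 8 genes had every Neu-NDL library above every WT library, as had 17% of all genes. The count was 4 without WT replicate 1 or 2 and 7 without both libraries that stood apart, and Oasl2 kept its call in 9 of 13 alternative settings. The median was 2.65 without Neu-NDL replicate 3. In 6 day PyMT organoids over WT organoids, 4 of 8 were called higher (Oas1a, Oas2, Oas3 and Oasl1), where 1.4% of all genes were, with a median of 1.95 against 0.01. The same 4 had no overlap between the groups, as had 6.36% of all genes. That count fell to 0 without WT replicate 1 or WT replicate 2 and to 1 without undated replicate 1, and it was 5 without both libraries that stood apart. The 4 comparisons share the WT libraries, so they are not separate evidence. Since the genes were chosen with these levels known, nothing is read from the counts against the shares of all genes.

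**Figure D4:**
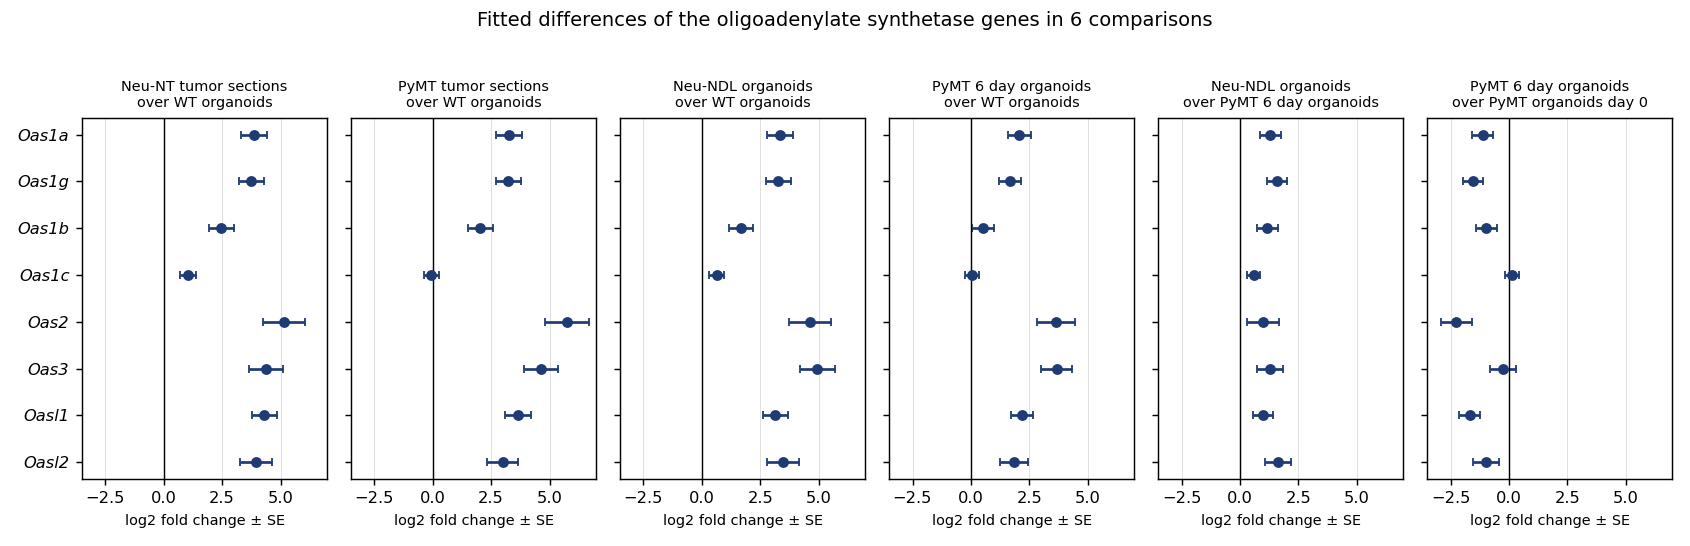
Log2 fold changes of the 8 OAS genes in 6 comparisons, with bars of 1 SE. The values over WT organoids are above 1.5 except for Oas1c and, in 6 day PyMT organoids, Oas1b (0.52); those of 6 day PyMT organoids over day 0 are below 0 except for Oas1c (0.14).

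Among PyMT organoids, 6 day libraries over day 0 had log2 fold changes of -2.25 (SE 0.68) for Oas2, -1.69 (SE 0.43) for Oasl1, -1.53 (SE 0.43) for Oas1g, -1.13 (SE 0.45) for Oas1a, -0.99 (SE 0.55) for Oasl2, -0.97 (SE 0.45) for Oas1b, -0.24 (SE 0.56) for Oas3 and 0.14 (SE 0.30) for Oas1c. Of the 8, Oas1g and Oasl1 were called lower, where 4.12% of all genes were, and the median was -1.06 against -0.02 over all genes. No gene had all 6 day libraries below all day 0 libraries, as 6.36% of all genes had. Day 6 replicate 3 was within or above the day 0 range for 8 of 8. Day 6 replicate 1 was above the lowest day 0 library too for Oas1a (37.2 over 36.6 CPM), Oas3 (13.1 over 6.64) and Oasl2 (52.7 over 51.9). For Oas1c every 6 day library was within the day 0 range. The count of 2 became 5 without day 6 replicate 3, 5 without both libraries that stood apart, and 1 without day 6 replicate 2. It became 0 without any one of the other libraries compared, namely day 0 replicates 1, 2 and 3, day 6 replicate 1 and undated replicates 1 and 2. With the day 6 libraries alone against day 0, an alternative chosen after seeing the data, no member was called with or without the replicate number as a block. The median fold change over the 8 genes was then closer to 0. With these day 6 libraries in the fit of all libraries the median was -0.53 and Oas2 stood at -0.87, so the larger declines above rest in part on the undated libraries. The day 6 means of Oas3 and Oas1c were not below their day 0 means. They were 12.9 ± 7.49 and 6.93 ± 0.247 CPM at day 6, against 9.36 ± 4.68 and 6.1 ± 1.5 CPM at day 0 (± SD, n = 3 each). For Oas3, day 6 replicate 2 (5.36 CPM) and the undated libraries (4.56 and 5.2 CPM) were below every day 0 library. Day 6 replicates 1 and 3 had 13.1 and 20.3 CPM, so the direction for Oas3 is not settled. In Neu-NDL over 6 day PyMT organoids, which differ in oncogene at the same length of culture, the log2 fold changes ran from 0.59 (SE 0.29) for Oas1c to 1.64 (SE 0.55) for Oasl2. Only Oas1g, at 1.59 (SE 0.43), was called higher, where 4.7% of all genes were, and the median was 1.22 against 0.02, and 0.62 without Neu-NDL replicate 3. Oas1c alone had no overlap between the groups, as had 6.68% of all genes. That count of 1 became 5 without day 6 replicate 3, 5 without both libraries that stood apart, stayed 1 without Neu-NDL replicate 1, and became 0 without any one of day 6 replicates 1 and 2, undated replicates 1 and 2 and Neu-NDL replicates 2 and 3.

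Oas1h was the only one of the 4 unlisted family genes that passed the filter. It had 3.44, 4.69 and 0.414 CPM in Neu-NT sections, 1.66, 1.16 and 1.5 in PyMT sections and 0.464, 0.534 and 2.41 in Neu-NDL organoids, against 0.0258, 0.107 and 0.0922 CPM in WT organoids, where each library held 1 to 5 counts. Its libraries did not overlap with WT in those 3 groups. Oas1d, Oas1e and Oas1f had 17, 21 and 49 counts over all 20 libraries.

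Pde12 and Akap7 encode enzymes that degrade 2-5A, and neither was called in any of the 6 comparisons by edgeR or DESeq2, nor had an unadjusted p under 0.05 by edgeR. Pde12 had a mean of 22.4 ± 6.67 CPM in Neu-NT sections, 16.2 ± 1.64 in PyMT sections and 18.5 ± 2.89 in Neu-NDL organoids, against 15.6 ± 0.949 CPM in WT organoids (SD, n = 3 each). Akap7 had a mean of 13.3 ± 6.2 CPM in Neu-NT sections, 14.2 ± 6.05 in PyMT sections and 9 ± 0.345 in Neu-NDL organoids, against 9.98 ± 1.87 CPM in WT organoids (SD, n = 3 each). Their log2 fold changes over WT organoids, 6 day PyMT organoids included, ran from -0.15 (SE 0.43) for Akap7 in Neu-NDL organoids to 0.52 (SE 0.29) for Pde12 in Neu-NT sections.

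Interferon ligands, receptors and signaling genes stand upstream of the OAS genes. Of 21 interferon genes only Ifnb1, a type I interferon, had enough counts to be tested. It had 17, 30 and 0 counts in Neu-NT sections and 0 counts in each WT library (edgeR adjusted p = 0.0108). In counts pooled by group, with a floor of 3 counts over the WT group, it was at least 27.2-fold higher in Neu-NT sections. That value leaves out the scatter between libraries and rests on Neu-NT replicates 1 and 2, since replicate 3 had 0 counts. Ifnb1 had 11, 9 and 8 counts at day 0 of PyMT organoids, and 0 in the day 6 libraries and 0 and 1 in the undated ones. Neu-NDL libraries held 2, 2 and 0 counts and PyMT sections 1, 0 and 0. Whether Ifnb1 has a part in the OAS levels was not tested.

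Of 20 receptor and signaling genes, 10 rose and 1 fell in Neu-NT sections over WT organoids, 5 rose and 1 fell in PyMT sections, 3 rose and 1 fell in Neu-NDL organoids, and 0 rose and 1 fell in 6 day PyMT organoids. The shares of all genes called in either direction were 19%, 12.5%, 4.52% and 3.89%, so the 1 of 20 in 6 day PyMT organoids is near the share of all genes. Irf7, the transcription factor that amplifies type I interferon, had 256, 317 and 189 CPM in Neu-NT sections, 347, 109 and 234 in PyMT sections and 71.9, 82.5 and 214 in Neu-NDL organoids, against 9.03, 16.8 and 23.9 CPM in WT organoids. No library of those groups overlapped WT. Irf7 rose by 3.94 (SE 0.73, adjusted p = 0.00246) on the log2 scale in Neu-NT sections and by 3.80 (SE 0.72, adjusted p = 0.0076) in PyMT sections by edgeR's quasi-likelihood test, and both calls held with each library left out. In Neu-NDL organoids it was 2.89 (SE 0.69, adjusted p = 0.029), a call lost without any one of the WT libraries or Neu-NDL replicates 2 and 3 (adjusted p up to 0.118). In 6 day PyMT organoids it was 1.96 (SE 0.63) with an adjusted p of 0.0929.

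The products of Stat2 and Irf9 are parts of ISGF3, the complex that binds the response element. Stat2 had 87.1, 100 and 48.9 CPM in Neu-NT sections, 74.8, 67.8 and 81.4 in PyMT sections and 61.5, 64.7 and 91.1 in Neu-NDL organoids, against 21.3, 24.1 and 28.5 CPM in WT organoids. It rose by 1.68 (SE 0.28, adjusted p = 0.00146), 1.60 (SE 0.28, adjusted p = 0.00603) and 1.56 (SE 0.28, adjusted p = 0.00972) in those groups by edgeR, with each library left out in turn too. Irf9 passed the test in Neu-NT sections alone of the 4 comparisons, where it rose by 1.61 (SE 0.27, adjusted p = 0.00148) on the log2 scale by edgeR. Irf9 was at 0.83 (SE 0.27, adjusted p = 0.0519) in PyMT sections, and a difference between the tumor groups was not tested. Ifnlr1, the type III interferon receptor of epithelium, was the gene that fell in all 4, with 20.1, 23 and 35.2 CPM in Neu-NT sections, 25.8, 27 and 27.4 in PyMT sections, and 29.8, 25.6 and 27 in Neu-NDL organoids, against 60.1, 51.1 and 61.4 CPM in WT organoids. On the log2 scale it stood at -1.14 (SE 0.21, adjusted p = 0.00264) in Neu-NT sections and -1.11 (SE 0.21, adjusted p = 0.00821) in PyMT sections by edgeR. It was -1.07 (SE 0.21, adjusted p = 0.0154) in Neu-NDL organoids and -0.74 (SE 0.19, adjusted p = 0.0397) in 6 day PyMT organoids, where 4 of 6 and 6 of 8 single omissions ended the call (adjusted p up to 0.149).

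Other sensors of foreign nucleic acid were tested as well. Of 14, 7 rose in Neu-NT sections, 6 in PyMT sections, 4 in Neu-NDL organoids and 1 (Zbp1) in 6 day PyMT organoids over WT organoids, and 0 fell. Among all genes 10.5%, 6.45%, 2.47% and 1.4% rose in these comparisons. Zbp1, a sensor of Z-form nucleic acid, had 105, 110 and 66 CPM in Neu-NT sections and 55.7, 32.6 and 38 in PyMT sections, against 7.38, 10.3 and 13.8 CPM in WT organoids. It rose by 3.16 (SE 0.40, adjusted p = 0.000255) and 2 (SE 0.38, adjusted p = 0.00798) on the log2 scale by edgeR, with each library left out too. Tlr9, an endosomal DNA sensor of dendritic and B cells, was read 54, 41 and 51 times in Neu-NT sections and 142, 21 and 62 times in PyMT sections, against 0, 2 and 0 times in the WT libraries.

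Of 25 other interferon effectors, 21 rose in Neu-NT sections, 17 in PyMT sections, 8 in Neu-NDL organoids and 2 in 6 day PyMT organoids over WT organoids. Those 2 were Zc3hav1, which binds foreign RNA (0.77, SE 0.16), and Bst2, which tethers budding virus (1.37, SE 0.36). Samhd1, which depletes nucleotides, fell there (-0.74, SE 0.19). Leaving out single libraries ended these calls for 3, 5 and 7 of the 8 libraries (adjusted p by edgeR up to 0.0974, 0.185 and 0.162). Rsad2, whose product makes an antiviral nucleotide, had 48.5, 47 and 4.76 CPM in Neu-NT sections, against 0.542, 2.92 and 2.8 CPM in WT organoids, and rose by 4 (SE 0.84, adjusted p = 0.00519) on the log2 scale by edgeR. Over these 5 lists together, with 64 genes tested, 39 rose and 1 fell in Neu-NT sections (median log2 fold change 1.18), 28 and 1 in PyMT sections (0.85), 15 and 1 in Neu-NDL organoids (0.84) and 3 and 2 in 6 day PyMT organoids (0.54). Called in either direction were 19%, 12.5%, 4.52% and 3.89% of all genes in these 4 comparisons, whose medians were 0.01 to 0.03. The 29 called in PyMT sections became 9 to 15 without WT replicates 1, 2 or 3 and 11 without PyMT section replicate 1. The 16 of Neu-NDL organoids became 4 to 6 without a WT library, 10 without Neu-NDL replicate 2 and 5 without Neu-NDL replicate 3. The 5 of 6 day PyMT organoids became 0 without WT replicate 1 or undated replicate 1, 1 without WT replicate 2 or 3, 2 without day 6 replicate 1 or undated replicate 2, and 8 and 9 without day 6 replicates 3 and 2. The 40 of Neu-NT sections were 32 to 40 under single omissions.

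In 6 day PyMT organoids over day 0, 3 of the 64 rose and 9 fell, and in Neu-NDL over 6 day PyMT organoids 9 rose and 2 fell, where 8.22% and 7.12% of all genes were called in either direction. Isg20, an interferon-induced exonuclease, ran against the OAS genes in both. It had 11.4, 11.8 and 5.63 CPM in Neu-NDL organoids, and PyMT organoids had 56.6, 71.7 and 9.28 CPM at day 6 and 81.5 and 121 CPM in the undated libraries, against 8.83, 8.79 and 7.67 CPM at day 0. Day 6 replicate 3 was thus near the day 0 and Neu-NDL levels and the other 6 day libraries above them. On the log2 scale it was 3.01 (SE 0.56, adjusted p = 0.008) in 6 day over day 0 organoids and -2.82 (SE 0.56, adjusted p = 0.0121) in Neu-NDL over 6 day PyMT organoids by edgeR, and both calls held with each library left out, while neither was made with only the libraries compared in the fit, with or without a replicate block. The other counts rest on single libraries: the 12 called over day 0 became 26 without day 6 replicate 3 and 1 to 7 without any other library, and the 11 of Neu-NDL organoids became 22 without day 6 replicate 3 and 1 to 7 without either undated library or any Neu-NDL library. Without both libraries that stood apart, each comparison called 28.

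Across the 20 libraries, the 21 pairs of OAS genes without Oas1c correlated in log2 CPM with Pearson r of 0.668 (Oas1b and Oas3) to 0.986 (Oas1a and Oas1g), with a median of 0.898, while the 7 pairs with Oas1c had 0.133 to 0.564. These points share groups, depth and culture, so r is given as a description. Of 18689 tested genes outside the family, the 10 most like the mean of the 8 genes were Apol9a (r = 0.983), Apol9b (0.981), Xaf1 (0.975), Gbp3 (0.97), Irf7 (0.963), Usp18 (0.963), Ddx60 (0.96), Parp12 (0.954), Rtp4 (0.953) and Pik3ap1 (0.944). Apol9a and Apol9b are apolipoprotein L genes, Gbp3 encodes a guanylate-binding GTPase, Usp18 encodes the protease that strips ISG15 and damps interferon signaling, and Pik3ap1 encodes an adaptor of B cells and myeloid cells. After the group means were taken off, 6 of the 10 stayed among the 10 most like, with r = 0.965 for Xaf1 and 0.951 for Apol9a and 0.736 for Pik3ap1. Single genes were closest to Apol9a (Oas1a, r = 0.98, and Oas1g, 0.963), Ifit3b (Oas1b, 0.943), Isg15 (Oas2, 0.929), Naip2 (Oas3, 0.887), Pik3ap1 (Oasl1, 0.968) and Rtp4 (Oasl2, 0.969). Oas1c was closest to Ap5s1, a subunit gene of an adaptor protein complex, at 0.926, and had r = 0.397 with the mean of the other members, against 0.854 to 0.977 for the rest.

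The levels of immune, stromal and basal cell markers varied between libraries and groups as well. The summed CPM of 15 macrophage and myeloid markers ran from 766 to 2390 in Neu-NT sections, 820 to 1250 in PyMT sections, 501 to 2190 in Neu-NDL organoids, 101 to 780 at day 6, 223 to 279 in undated organoids, 449 to 640 at day 0 and 182 to 293 in WT organoids. Of those markers, 12 rose in Neu-NT sections, 9 in PyMT sections and 4 in Neu-NDL organoids over WT organoids, and 0 of 15 in 6 day PyMT organoids (1 at an unadjusted p under 0.05 and 1 by DESeq2), where 10.5%, 6.45%, 2.47% and 1.4% of all genes rose. T, NK and B cell markers, 12 in number, summed to 3.55 to 31.3 CPM in Neu-NT sections, 4.52 to 16 in PyMT sections, 1.97 to 3.33 in Neu-NDL organoids and 0.387 to 0.768 in WT organoids. The sum of 7 dendritic cell markers was 25.5 to 42.3 CPM in Neu-NT sections, 23 to 38.3 in PyMT sections, 8.95 to 22.3 in Neu-NDL organoids and 4.8 to 7.04 in WT organoids. Fibroblast markers, 6 in number, summed to 263 to 2680 CPM in Neu-NT sections, 1940 to 5910 in PyMT sections, 146 to 2770 in Neu-NDL organoids and 428 to 789 in WT organoids. The 2770 CPM came from Neu-NDL replicate 1, while replicates 2 and 3 had 146 and 183 CPM, below every WT library. The sum of 6 endothelial markers was 75.2 to 120 CPM in Neu-NT sections, 104 to 161 in PyMT sections, 5.32 to 42.9 in Neu-NDL organoids and 10.3 to 53.2 in WT organoids. Here too the 42.9 CPM came from Neu-NDL replicate 1, against 6.92 and 5.32 CPM in replicates 2 and 3. All PyMT sections were above all WT libraries for 6 of the 6 endothelial genes and 5 of the 6 fibroblast genes, as they were for 23.2% of all genes. No gene of either list was called by edgeR in PyMT sections over WT organoids, and DESeq2 called 2 endothelial genes and 1 fibroblast gene. Basal epithelial markers, 6 in number, went the other way in these tumor groups, with 30.7 to 1650 CPM in Neu-NT sections, 51.7 to 240 in PyMT sections, 89.5 to 539 in Neu-NDL organoids and 2280 to 2930 in WT organoids. PyMT organoids had 62.9 to 6430 CPM of the basal markers at day 6, 1510 to 2470 in the undated libraries and 139 to 327 at day 0. Day 6 replicate 2, at 6430 CPM, was above every WT library, and undated replicate 2, at 2470 CPM, was within the WT range. In Neu-NT sections the highest sum of every list above came from replicate 3, a library that stood apart. Replicates 1 and 2 had 934 and 766 CPM of the myeloid markers and 3.55 and 6.35 CPM of the T, NK and B cell markers. They had 1240 and 263 CPM of the fibroblast markers and 69.1 and 30.7 CPM of the basal markers. In bulk samples, fewer cells of a type and less RNA per cell cannot be told apart. The part of these markers in the OAS levels of sections and Neu-NDL organoids was not tested.

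In 4 PyMT libraries, picked after their values were seen, Ptprc was below its WT levels while other myeloid markers were not so in all of them. Ptprc, the leukocyte antigen CD45, was at 0.488 and 0.512 CPM in day 6 replicates 1 and 2 and at 0.369 and 0.884 in undated replicates 1 and 2, against 1.32, 1.22 and 2.58 CPM in WT organoids. The myeloid sum was 101 and 101 CPM in those day 6 libraries and 223 and 279 CPM in the undated ones, against 229, 182 and 293 CPM in WT organoids. The macrophage receptor gene Csf1r was at 1.46 and 2.77 CPM in the day 6 libraries and at 1.07 and 2.69 in the undated ones, against 2.92, 2.07 and 3.9 CPM in WT organoids. Both measures thus overlapped WT in part of the 4 libraries. The plasmacytoid dendritic cell gene Siglech was at 0 in those 4 libraries and in all WT libraries. Their summed OAS level was 188, 75.7, 90.3 and 57.7 CPM, against 19.9, 32.8 and 46.9 CPM in WT organoids. All 4 sums were above the WT sums, and the part of immune cells in them was not tested.

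**Figure D5:**
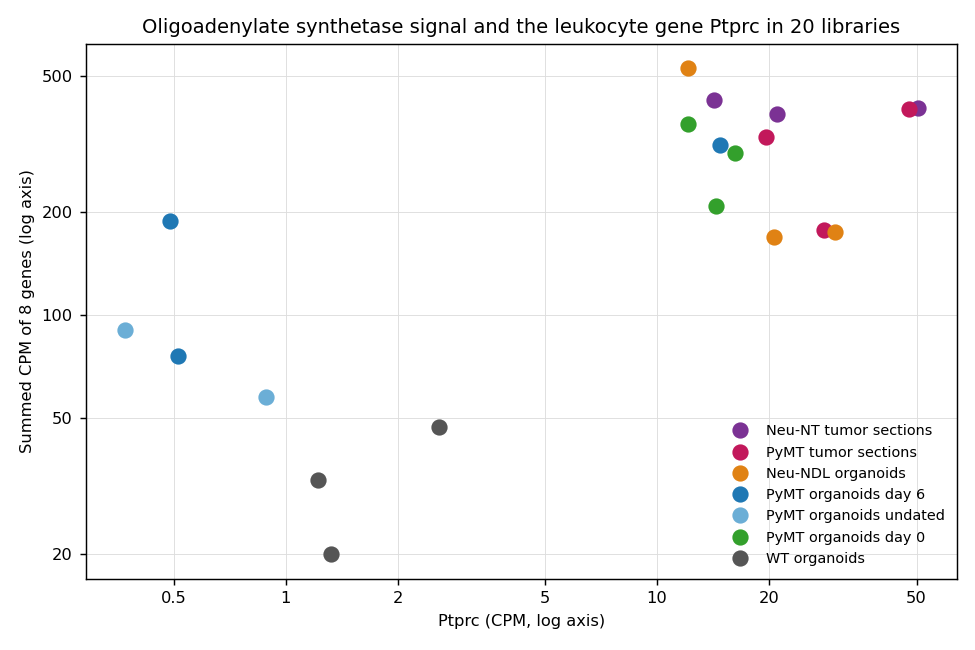
Summed CPM of the 8 OAS genes against Ptprc CPM (both log axes), 1 point per library, colored by group. Day 6 replicates 1 and 2 and both undated PyMT libraries lie left of the WT libraries, at 0.369 to 0.884 CPM of Ptprc, and above them, at 57.7 to 188 CPM of the OAS genes.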

How the data were processed

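Per the submitters' processing notes, which list tools without versions, reads were handled with CASAVA, FastQC, STAR, HTSeq and DESeq2 on mm10. The deposited values are raw counts of reads per gene, 1 table per library with 45318 Ensembl gene IDs, of which 44585 matched a symbol in GENCODE M21. The annotation release, strand setting and counting mode are not given in the sources used here. Reads on no gene (5.6 to 12.3%) and ambiguous reads (4.68 to 7.39%) are given as shares of gene counts and both these classes together. Reads with several alignments (10.7 to 16.3%) are a share of gene counts and all classes listed apart. All these classes are listed apart by the authors and stayed out of library sizes and tests.

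From the counts, edgeR 4.0.16 (R 4.3.3; TMM scaling, filterByExpr by group, robust quasi-likelihood fit, 1 mean for each of 7 title groups over all 20 libraries, 13 residual degrees of freedom, common dispersion 0.193) tested 18698 genes. A gene was called at a p under 0.05 after Benjamini-Hochberg adjustment over all genes tested in its comparison. The SE of a log2 fold change is its size over the square root of F. CPM used TMM library sizes, and log2 CPM for correlations a prior count of 2. The scripts were tested on simulated counts with known changes.

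The 8 genes, the lists and the rule for named genes were chosen with earlier results of these data known. The rule named the 8 genes, the 10 genes most like their mean, each gene's closest gene, the 3 called genes with the largest change in each pathway list and comparison, and a few signaling genes, among them Stat2, Irf9 and Irf7; some listed genes count in the lists' totals and are not reported here by name. The text prints mostly those whose call held with each library left out, a selection made after their values were seen. Replicate numbers were checked as pairs by correlating deviations from group means over genes. They passed only for day 6 and day 0 PyMT organoids (r = 0.287, 0.428 and 0.317), and no label states pairs. Alternatives were RLE factors, no filter, DESeq2 1.42.0, only the libraries compared, a replicate block, each library left out and both libraries that stood apart left out. The day 6 libraries alone were added after seeing the data.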

Additional observations from a re-analysis of the deposited data

Results flagged for a closer look

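Oas1b in PyMT organoids day 6 replicate 3 stood out at 19.3 CPM from the other 4 of the 5 PyMT organoid libraries of 6 days, the nearest of which had 7.22 CPM. The gap was 0.761 of the whole range. The cutoff of the screen is a gap that chance exceeds in about 1 of 20 groups, for a single gene with normally spread values. All 8 genes were screened in these libraries, so a gap over the cutoff in some gene is more frequent than that. The libraries also pool the day 6 and undated groups, and this library was already known to stand apart, so that rate does not describe this case. The same library had 14.8 CPM of Ptprc, against 0.369 to 0.884 CPM in the other 4, and its part in the value was not tested.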

How the results depend on the processing

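Values are given as PyMT sections, 6 day PyMT and Neu-NDL organoids and Neu-NT sections, each over WT organoids, then 6 day PyMT over day 0 and Neu-NDL over 6 day PyMT organoids. All genes called were 2337, 728, 846, 3555, 1537 and 1331. DESeq2 called 3669, 1779 and 2075 in the first 3, and 2940 and 2620 in the last pair. Fits of only the libraries compared called 4870 in PyMT sections, 1907 in Neu-NDL organoids, and 66 and 11 in the last pair. No filter on low counts gave 896 and 834 in the last pair. Without both libraries that stood apart the 6 counts were 5024, 3071, 2699, 5384, 5701 and 4514. With single libraries left out they ran from 525 to 1729, 81 to 2025, 115 to 1291, 1830 to 4060, 232 to 4527 and 173 to 3109.

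Pathway genes called were 29, 5, 16, 40, 12 and 11. Single omissions gave 9 to 27, 0 to 9, 4 to 18, 32 to 40, 1 to 26 and 1 to 22. In 6 day PyMT over WT organoids they were 3 with no filter, 12 with DESeq2, 0 in only the libraries compared and 12 without both libraries that stood apart. In Neu-NDL over WT organoids they were 29 with DESeq2 and 35 without both libraries. Over day 0 they were 7 with no filter, 0 in only the libraries compared and 28 without both libraries. In Neu-NDL over 6 day PyMT organoids they were 0 and 28 under the last pair of settings.

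OAS genes called were 7, 4, 6, 8, 2 and 1, and single omissions gave 5 to 7, 0 to 6, 4 to 7, 7 to 8, 0 to 5 and 0 to 5. In 6 day PyMT over WT organoids they were 2 with no filter and 1 in only the libraries compared. Over day 0 they were 1 with no filter, 0 in only the libraries compared and 5 without both libraries. In Neu-NDL over 6 day PyMT organoids they were 3 with DESeq2, 0 in only the libraries compared and 5 without both libraries. No log2 fold change of a called OAS gene changed sign. The median over the 8 genes ran from 2.89 to 3.87, 1.62 to 2.39, 2.65 to 3.78, 3.56 to 4.43, -1.35 to -0.53 and 0.62 to 1.52. Uncalled values of Oas3 over day 0 (4 of 18 settings) and of Oas1c over day 0 and in PyMT sections (1 setting each) changed sign. The cause of these moves was not tested.

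The replicate block, fitted on only the libraries compared, called 4052, 242, 399, 1702, 48 and 0 of all genes, 0 pathway genes in 6 day PyMT over WT organoids, 24 in Neu-NT sections and 0 and 0 in the last pair, and 2, 0 and 0 OAS genes in the 3 comparisons with 6 day PyMT organoids. The day 6 libraries alone over day 0, whose numbers pass as pairs, called 117 genes in the fit of all libraries (1 pathway gene, 0 OAS genes), 4 in only those compared and 0 with the replicate block (0 pathway and 0 OAS genes in both). Counts under 100 of Oas2, Oas3 and Oasl1 in all WT libraries, and of Oas1a and Oas1g in some of them, limit the precision of their fold changes.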
